A study of Mus musculus with 10 samples.

Results

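The transcripts of 8 cell adhesion molecules were followed in 5 mouse small cell lung cancer (SCLC) lines whose MYCN transgene can be switched. They were taken by symbol from the count files, where they are 8 of 24391 genes, and all 8 passed the filter on low counts that left 12835 genes for testing. The neural molecules were Ncam1, L1cam, Nrcam and Cntn1, the epithelial molecules Epcam and Cdh1, and the remaining members Cdh2 and Cadm1. Lines G4314, G9351, G9488, G9529 and G9577 carry, per the labels, altered Rb and p53 together with TRE-MYCN, a transgene under a tetracycline-responsive promoter, and LSL-RTTA, the activator that needs doxycycline. Each line gave 1 library grown on doxycycline (MYCN on) and 1 library taken 4 days after the drug was withdrawn (MYCN off). The 10 libraries therefore share the Rb and p53 alleles and both transgenes, and none without the transgene was exposed to the drug, so effects of doxycycline and of MYCN cannot be told apart. The labels do not say how many animals the lines came from or whether cultures were repeated. The p-values of the doxycycline test set the mean change against how much that change varied between these 5 lines. Those of the tests among lines rest on the spread of a line's 2 libraries after the doxycycline effect.

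Neural adhesion molecules of the immunoglobulin superfamily (Ncam1, L1cam, Nrcam and Cntn1) span or attach to the plasma membrane and bind copies of themselves or of each other on neighbouring cells, guiding axon growth and the bundling of nerve fibres. Classical cadherins (Cdh1, or E-cadherin, and Cdh2, or N-cadherin) hold cells together through calcium-dependent contacts that catenins tie to actin, and Epcam is an epithelial membrane glycoprotein that SCLC also carries. SCLC is a neuroendocrine lung tumour for which NCAM (CD56) is a routine diagnostic stain, and a switch from E-cadherin to N-cadherin is a classical reading of the epithelial-mesenchymal transition (EMT).

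Total counts per library ran from 9586465 to 11960074. Mycn, the gene the transgene supplies, rose in 5 of 5 lines with doxycycline, from 118 ± 66.5 to 737 ± 212 CPM (mean ± SD over 5 lines), a log2 change of 2.86 (SE 0.38, adjusted p = 0.00421). These are counts on the mouse gene, and as the labels do not name the transgene's species, they may measure it only in part. Levels are in CPM, the count set relative to the library's total over the tested genes after TMM scaling. The tested genes held 93.85% of the counts in G9577 with MYCN off and at least 98.05% in each other library. Changes are log2 of MYCN on over MYCN off, and adjusted p-values come from edgeR's quasi-likelihood test with the line as a block. Both libraries of G9577 stood apart from the other 8, although this line is labelled SCLC like the rest. The 5 neuroendocrine markers Insm1, Chga, Syp, Uchl1 and Calca summed to 40.6 to 122 CPM in G9577 and to 1979 to 3840 CPM elsewhere. Chga, a protein of neuroendocrine secretory granules, was at 1.21 (on) and 11.8 CPM (off) in G9577, against at least 293 CPM in each other library. Markers of other cell types were higher in G9577, namely mesenchymal and fibroblast genes (202 to 2255 CPM against 1.14 to 5.86), endothelial genes (35.7 to 133 CPM against 0.837 to 11.1) and, in the library with MYCN off, leukocyte genes (59.9 CPM against 1.72 to 5.80). By the 2-fold rule given below, 9.33% of all genes with a mean of at least 1 CPM were higher in G9577. Of the 7 mesenchymal and fibroblast markers 5 were, led by Pdgfrb (126 and 1078 CPM). Of the 4 endothelial markers only Kdr was, with Cdh5 at 0 and Pecam1 at no more than 0.557 CPM, and of the 4 leukocyte markers none was, with Ptprc and Cd3e at 0 and Lyz2 at 55.0 CPM without doxycycline. The changes of the 8 members are therefore given with and without this line, and those of the other genes mostly over all 5 lines. In bulk RNA, fewer cells of a type and less transcript per cell cannot be told apart.

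Promoter sequence was at hand for 4 of the 8 members (Epcam, Nrcam, L1cam and Cntn1), and 3 of these are shown because they carry, or lack, the motifs of the 2 families of factors that the design brings in. MYC family proteins bind the E-box CACGTG, and the repressors Zeb1, Zeb2, Snai1 and Snai2 bind the E-box CACCTG. Each run holds 300 bases around a transcription start listed by RefSeq in build GRCm38.p6, read 5′ to 3′ on the gene's strand, with a motif match on either strand in capitals. The runs are Epcam chr17:87635729-87636028 (plus strand), Nrcam chr12:44328635-44328934 (plus strand) and L1cam chrX:73880741-73881040 (minus strand).
Epcam: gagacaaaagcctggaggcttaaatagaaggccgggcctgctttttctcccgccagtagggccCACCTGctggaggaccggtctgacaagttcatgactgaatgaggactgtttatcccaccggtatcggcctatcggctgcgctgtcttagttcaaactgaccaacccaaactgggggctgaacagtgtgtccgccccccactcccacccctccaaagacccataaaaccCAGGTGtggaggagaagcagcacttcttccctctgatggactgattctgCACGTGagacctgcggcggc
Nrcam: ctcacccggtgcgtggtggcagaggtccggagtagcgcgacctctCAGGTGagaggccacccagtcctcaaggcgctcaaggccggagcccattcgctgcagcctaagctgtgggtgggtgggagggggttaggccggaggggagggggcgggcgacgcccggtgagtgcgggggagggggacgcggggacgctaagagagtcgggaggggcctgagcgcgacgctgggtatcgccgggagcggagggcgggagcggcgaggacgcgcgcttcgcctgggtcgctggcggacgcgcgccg
L1cam: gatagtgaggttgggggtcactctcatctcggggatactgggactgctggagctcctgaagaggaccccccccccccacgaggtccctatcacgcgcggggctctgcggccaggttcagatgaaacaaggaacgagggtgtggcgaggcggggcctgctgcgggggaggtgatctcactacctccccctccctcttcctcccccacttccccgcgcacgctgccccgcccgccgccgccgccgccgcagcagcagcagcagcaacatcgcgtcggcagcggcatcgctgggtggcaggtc
Epcam held CACGTG at positions 31 to 36 after the start and matches to CACCTG at -187 to -182 and, as the reverse complement CAGGTG, at -19 to -14. Nrcam held CAGGTG at -205 to -200, and neither motif was found in the listed windows of L1cam or Cntn1. Of 32851 promoters of the same length, 7.15% hold CACGTG and 20.2% hold CACCTG on either strand. These matches describe letters in a window, not binding sites.

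Compared per kilobase of gene model (RPKM), the epithelial transcripts Epcam and Cdh1 were the most abundant of the 8. The medians over the 10 libraries were 348 RPKM for Epcam, 159 for Cdh1, 60.9 for Cadm1, 34.1 for Cdh2, 31.8 for Ncam1, 20.6 for L1cam, 10.8 for Cntn1 and 5.18 for Nrcam. Epcam led in all 8 libraries of the lines other than G9577, where it lay between 316 and 432 RPKM, and Cdh1 lay between 105 and 241 RPKM there without reaching it. Cdh2 and Ncam1 are neighbours in this order whose ranges overlapped (11.2 to 45.2 and 10.6 to 65.7 RPKM). In G9577 the leading member was Cadm1, at 23.7 RPKM with MYCN on and 23.1 with MYCN off, and Epcam stood at 0.497 and 1.94 RPKM. The plot of levels by line, which is in CPM and so does not show this order between genes, shows the drop of 5 members at G9577.

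**Figure D1:**
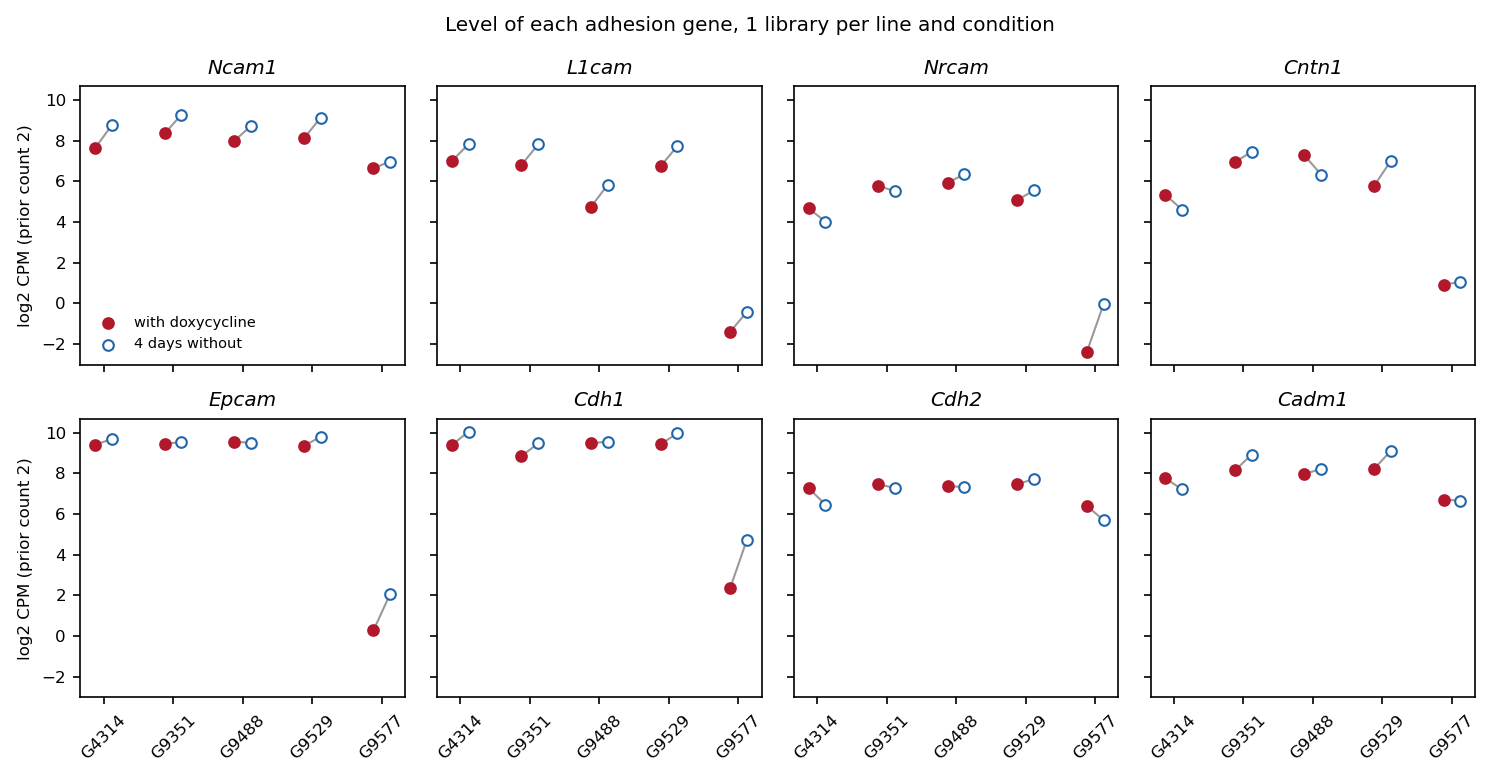
Level of each of the 8 adhesion genes (vertical axis, log2 CPM with a prior count of 2) in each line (horizontal axis), with 1 filled point for the library with doxycycline and 1 open point for the library taken 4 days without it, joined by a line. Ncam1 and L1cam have the open point above the filled one in 5 of 5 lines, and L1cam, Nrcam, Cntn1, Epcam and Cdh1 fall far below the other lines in G9577.

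With MYCN on, the neural molecules Ncam1 and L1cam fell and the other 6 members did not pass the test. That made 2 of 8 members lower, against 15.6% of all genes tested, and 0 of 8 higher, against 15.3% of all genes tested. DESeq2 and limma-voom also called 0 members higher, and 0 had a rise at an unadjusted p under 0.05. The median log2 change was -0.32 over the 8 members and -0.08 over all genes tested.

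Ncam1 (mm9 chromosome 9, 49310251 to 49607174, minus strand) encodes the neural cell adhesion molecule, the CD56 antigen. With MYCN on it was at 198 CPM in G4314, 326 in G9351, 254 in G9488, 274 in G9529 and 99.8 in G9577, and with MYCN off at 435, 619, 421, 558 and 125 CPM in the same order. Every line was lower with MYCN on. Over the 5 lines the 2 conditions overlapped, while 1185 of the 12835 genes tested had conditions that lay apart. Ncam1 lay apart only with G9577 left out (highest with MYCN on 326 CPM, lowest with MYCN off 421 CPM). No share of all genes was taken for that smaller set of lines. The means were 230 ± 86.3 CPM on and 432 ± 191 CPM off (SD, n = 5 lines), a 1.78-fold fall (log2 change -0.83, SE 0.14, adjusted p = 0.00804). G9577 had the smallest change, -0.32, and G4314 the largest, -1.13. Without G9577 the fall was -0.94 (SE 0.11, adjusted p = 0.00212). Ncam1 shares exon bases with the predicted gene Gm11149, which took at most 5 counts in a library.

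L1cam (chromosome X, 71099119 to 71126173, minus strand) encodes L1, the ankyrin-binding molecule of growing axons. With MYCN on it stood at 126 CPM in G4314, 111 in G9351, 26.6 in G9488, 107 in G9529 and 0.186 in G9577, and with MYCN off at 228, 225, 56.5, 211 and 0.557 CPM. The conditions overlapped over the lines, while within each line the library with MYCN on was the lower. The fall was 2.01-fold (log2 change -1.004, SE 0.12, adjusted p = 0.00368), and the changes of the 5 lines lay close together, from -0.85 in G4314 to -1.08 in G9488. The value of G9577 (-0.99) rests on 2 and 5 counts. Without that line the fall was -0.97 (SE 0.10, adjusted p = 0.00146).

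Nrcam (chromosome 12, 45429872 to 45702833, plus strand), the neuronal relative of L1cam, stood at 25.2, 55.0, 60.3 and 33.5 CPM with MYCN on in G4314, G9351, G9488 and G9529, and at 16.0, 44.99, 81.6 and 46.7 CPM with MYCN off. G9577 had 0 counts with MYCN on and 7 counts (0.779 CPM) with MYCN off. The lines moved both ways, from 0.65 in G4314 to -0.47 in G9529 among the lines other than G9577, and the fitted change was -0.17 (SE 0.38, adjusted p = 0.754). Without G9577 it was 0.01 (SE 0.21, adjusted p = 0.986). Cntn1 (chromosome 15, 91881596 to 92172398, plus strand) encodes contactin 1, a neural molecule held in the membrane by a lipid anchor. It stood at 40.1, 123, 154, 54.2 and 1.68 CPM with MYCN on in the same line order and at 24.2, 174, 80.0, 127 and 1.89 CPM with MYCN off. It was higher with MYCN on in G4314 (0.72) and G9488 (0.94) and lower in G9351 (-0.50) and G9529 (-1.23), which left a fitted change of -0.04 (SE 0.34, adjusted p = 0.943). The fitted change was -0.01 (SE 0.36, adjusted p = 0.983) without G9577, and its sign turned when G9351 (0.09) or G9529 (0.27) was left out.

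Ncam1 made up a much larger share of these 4 neural transcripts in G9577 than elsewhere. Of the summed RPKM of Ncam1, L1cam, Nrcam and Cntn1, it held 38.4% to 56.5% in the 8 libraries other than those of G9577, and 97.2% (MYCN on) and 96.3% (MYCN off) in G9577. The 4 neural transcripts together stood at 54.7 to 142 RPKM in those 8 libraries and at 10.9 and 13.7 RPKM in G9577.

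**Figure D2:**
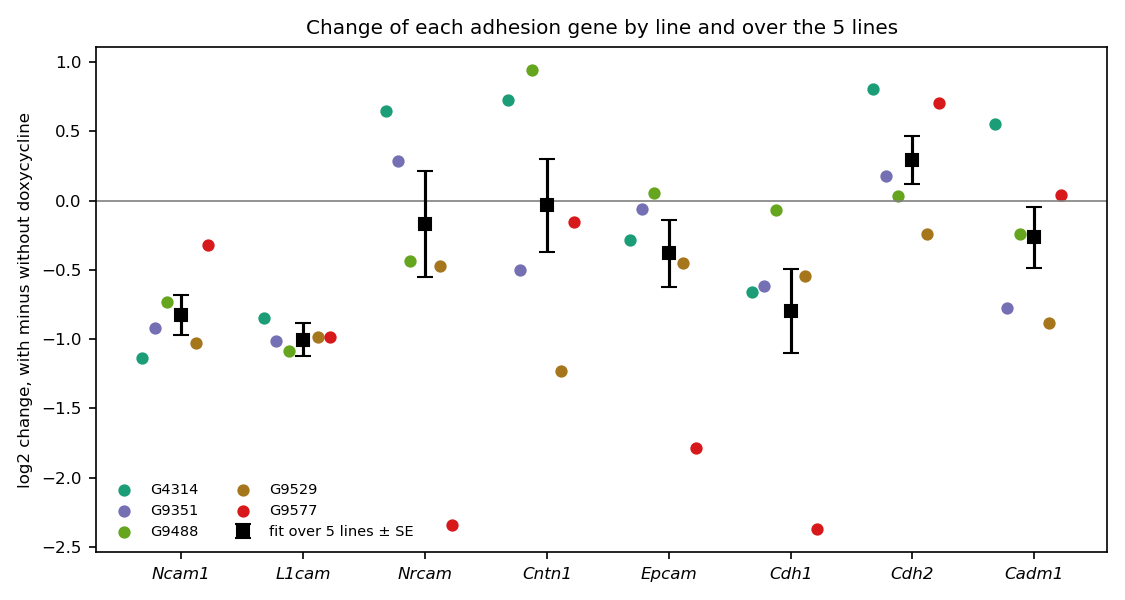
Log2 change with minus without doxycycline (vertical axis) of each adhesion gene, with coloured points for the 5 lines and a black square with its SE for the fit over the lines. Ncam1 and L1cam have 5 of 5 points below 0, while Nrcam, Cntn1 and Cadm1 have points on both sides and the G9577 points of Nrcam, Epcam and Cdh1 lie at -2.34, -1.79 and -2.37.

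Of the epithelial molecules, Epcam (chromosome 17, 88035319 to 88050467, plus strand) lay between 652 and 890 CPM in 4 lines and had at most 36 counts in the fifth. It stood at 678, 708, 754 and 652 CPM with MYCN on in G4314, G9351, G9488 and G9529, and at 826, 738, 725 and 890 CPM with MYCN off. In G9577 it had 11 counts (1.03 CPM) with MYCN on and 36 counts (4.01 CPM) with MYCN off. The fitted change was -0.38 (SE 0.24, adjusted p = 0.252), and without G9577 it was -0.17 (SE 0.12, adjusted p = 0.305).

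Cdh1 (chromosome 8, 109127268 to 109194146, plus strand), E-cadherin, was at 673, 463, 718, 689 and 4.94 CPM with MYCN on and at 1065, 711, 753, 1004 and 26.4 CPM with MYCN off. Each of the 5 lines was lower with MYCN on, by 0.07 (G9488) to 0.66 (G4314) log2 units in 4 lines and by 2.37 in G9577, where the counts were 53 and 237. The fit over 5 lines did not pass (log2 change -0.79, SE 0.30, adjusted p = 0.0831). With the single large value of G9577 left out, the change was smaller and its call passed (log2 change -0.46, SE 0.14, adjusted p = 0.0364), which made 3 of 8 members lower, against 17.4% of all genes tested without that line. DESeq2 on all 5 lines also called Cdh1 lower (log2 change -0.85, adjusted p = 0.0164).

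Cdh2 (chromosome 18, 16747386 to 16967558, minus strand), N-cadherin, stood at 155, 176, 165, 178 and 84.4 CPM with MYCN on and at 88.5, 156, 161, 210 and 51.9 CPM with MYCN off. The value with MYCN on was the higher in 4 of 5 lines, and the fitted change was 0.29 (SE 0.18, adjusted p = 0.230). Without G9577 it was 0.20 (SE 0.17, adjusted p = 0.395). Cadm1 (chromosome 9, 47338435 to 47661468, plus strand), a nectin-like molecule of synapses and epithelia, stood at 217, 283, 252, 297 and 104 CPM with MYCN on and at 148, 483, 297, 549 and 101 CPM with MYCN off. Its change ran from -0.88 in G9529 to 0.55 in G4314 and did not pass over the lines (log2 change -0.27, SE 0.22, adjusted p = 0.372). Without G9577 the change was -0.33 (SE 0.24, adjusted p = 0.308). Cadm1 shares exon bases with the predicted gene Gm10677, which took at most 10 counts in a library.

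The ratio of Cdh1 to Cdh2, taken per kilobase within each library, was 4.59 in G4314, 2.77 in G9351, 4.57 in G9488 and 4.08 in G9529 with MYCN on, and 12.7, 4.80, 4.91 and 5.03 with MYCN off. In G9577 it was 0.0616 with MYCN on and 0.535 with MYCN off, so N-cadherin exceeded E-cadherin there 16.2-fold and 1.87-fold. E-cadherin exceeded N-cadherin in the other 8 libraries. Cdh2 itself was lower in G9577 than in every other line, so the low ratio there is not a higher level of N-cadherin. It stood at 84.4 CPM against 155 to 178 with MYCN on, and at 51.9 CPM against 88.5 to 210 with MYCN off. The ratio was lower with MYCN on in each of the 5 lines. The ratio is given as a description and was not tested.

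**Figure D3:**
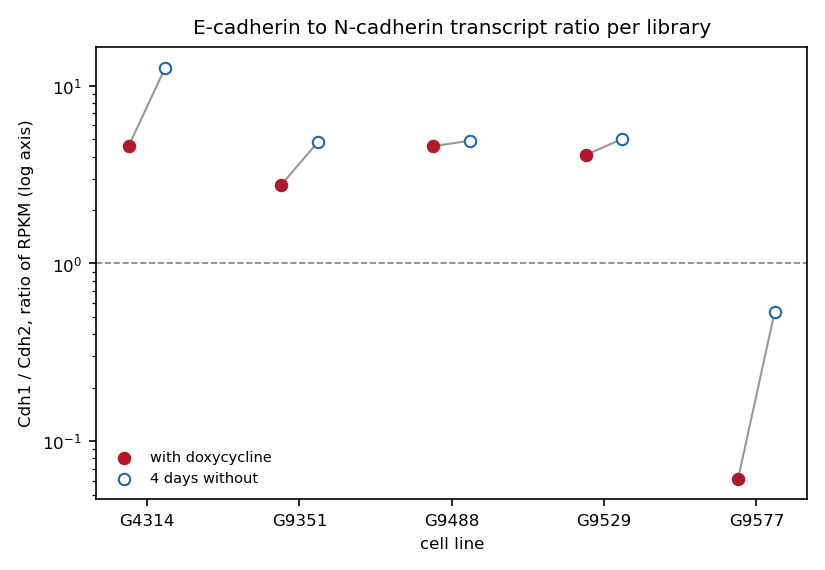
Ratio of Cdh1 to Cdh2 in RPKM (vertical log axis) for each line, with filled points for MYCN on and open points for MYCN off and a dashed line at 1. The filled point lies below the open one in each line, and the points of G9577 (0.0616 and 0.535) are the ones under 1.

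The lines differed in all 8 members when the line coefficients were tested together (8 of 8, against 45.6% of all genes tested; adjusted p between 6.14e-05 for L1cam and 0.0193 for Cdh2). Among the 4 lines other than G9577, 2 of 8 members still differed, against 31.2% of all genes tested, namely L1cam (adjusted p = 0.000566) and Nrcam (adjusted p = 0.0213). L1cam was lowest in G9488 under both conditions (26.6 and 56.5 CPM against 107 to 228 CPM in G4314, G9351 and G9529), and those 3 lines lay close together, at 107 to 126 CPM with MYCN on and 211 to 228 CPM with MYCN off. Nrcam was lowest in G4314 (25.2 and 16.0 CPM) and highest in G9488 (60.3 and 81.6 CPM). For the other 6 members the adjusted p without G9577 was 0.0608 for Cntn1, 0.0729 for Ncam1, 0.120 for Cadm1, 0.128 for Cdh1, 0.220 for Cdh2 and 0.949 for Epcam.

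G9577 was below every other line in both conditions by at least 2-fold for 5 of the 8 members (L1cam, Nrcam, Cntn1, Epcam and Cdh1). Across the transcriptome, 10.7% of 13644 genes with a mean of at least 1 CPM were that much lower in G9577 and 9.33% that much higher, and 0 of the 8 members were higher. Ncam1, Cdh2 and Cadm1 were also below every other line, with a gap under 2-fold in at least 1 condition. No share of all genes was taken for that looser criterion. This is a description without a test, since an exact permutation test of 1 line against 4 cannot go below p = 0.2. Intervals below are exact 95% intervals of the G9577 count, with the median of the other lines held fixed, and cover counting error only.

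For Epcam the median of the other lines was 676 times (378 to 1354) the level of G9577 with MYCN on and 195 times (141 to 279) with MYCN off. For Cdh1 the ratios were 138 (105 to 184) and 33.3 (29.3 to 38.0), and for Cntn1, at 18 and 17 counts in G9577, 52.7 (33.3 to 88.9) and 54.7 (34.2 to 93.9). L1cam, at 2 and 5 counts, gave 585 (162 to 4831) and 392 (168 to 1206). Nrcam had 0 counts in G9577 with MYCN on, so its ratio there has a lower limit only. That limit was 129 by the same interval, and the ratio was 158 against a floor of 3 counts. With MYCN off, Nrcam was 58.8-fold lower (28.5 to 146). The transcripts that G9577 kept were Ncam1, Cdh2 and Cadm1, for which the other lines had 2.64, 2.02 and 2.57 times its level with MYCN on and 3.98, 3.06 and 3.85 times with MYCN off. The number of members past the rule was 7 when libraries were scaled by size alone or when G4314 was left out, and 6 when G9488 was.

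Other epithelial genes were low and EMT genes high in the same line. Across all genes with a mean of at least 1 CPM, 10.7% were lower and 9.33% higher there by the 2-fold rule. Of 24 epithelial junction and keratin genes with a mean of at least 1 CPM, 17 were lower in G9577 by the same rule, among them claudins, Ocln, Krt8 and the epithelial splicing factors Esrp1 and Esrp2, and 1 was higher, Cldn12. Of 18 other neural immunoglobulin molecules, 8 were lower, among them Ncam2, Nfasc and the contactins Cntn3 and Cntn4, and 1 was higher. Of the 8 EMT factors and mesenchymal genes, 8 were higher and 0 lower. Zeb1, which represses E-cadherin, was at 37.0 and 72.4 CPM in G9577 with MYCN on and off and at 0.279 to 4.84 CPM elsewhere, and Zeb2 at 122 and 223 CPM against 0.750 to 23.8 CPM. Snai1 was at 19.6 and 125 CPM against 0.493 to 1.78 CPM, and Snai2 at 10.7 and 52.2 CPM against 1.28 to 8.63 CPM. Twist1 was at 58.9 and 113 CPM with at most 1 count in any other library, and Vim, the mesenchymal intermediate filament protein, at 1638 and 4409 CPM against at most 0.475 CPM. The part of these genes, and of the other cell types whose markers were high, in the low members of G9577 was not tested.

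**Figure D4:**
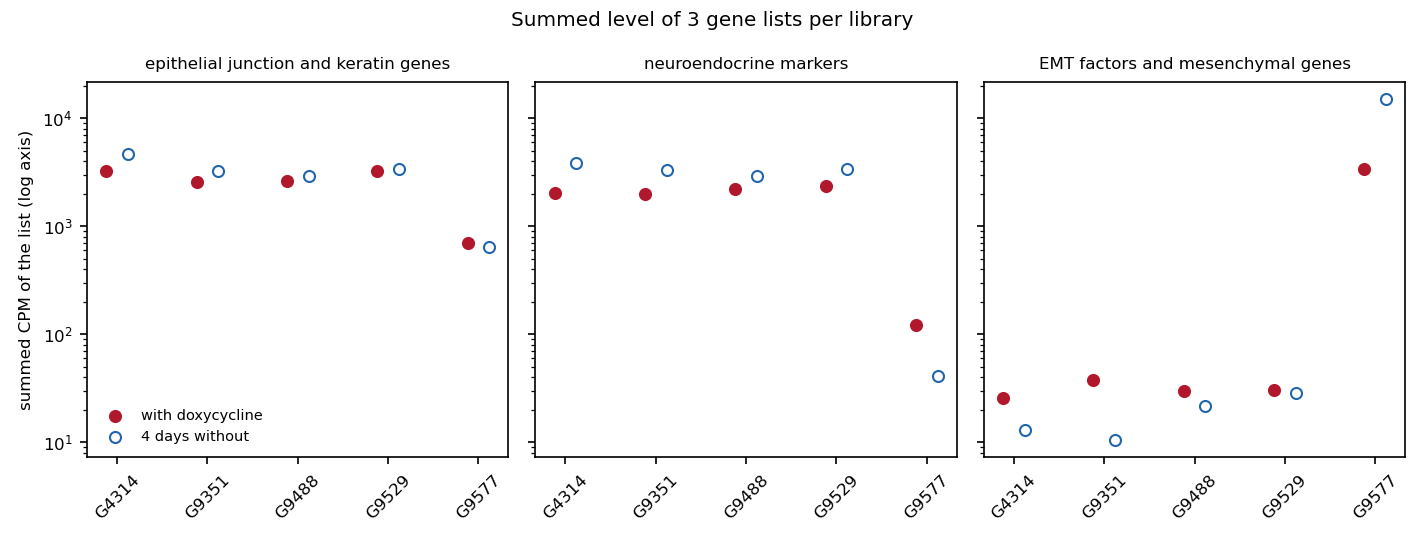
Summed CPM (vertical log axis) of the lists of epithelial junction and keratin genes, neuroendocrine markers and EMT factors with mesenchymal genes in each line, with filled points for MYCN on and open points for MYCN off. In G9577 the epithelial sum is 638 to 695 CPM and the neuroendocrine sum 40.6 to 122 CPM, below all other lines, and the EMT sum is 3407 to 15150 CPM against 10.4 to 37.9 CPM.

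Of 22 other neural immunoglobulin adhesion molecules, relatives of Ncam1 and L1cam, 16 could be tested. With MYCN on, 10 of these fell, 0 rose and 6 did not pass, against 15.6% lower and 15.3% higher of all genes tested, and their median log2 change was -1.24. DESeq2 and limma-voom called 0 higher too, and 0 had a rise at an unadjusted p under 0.05. Negr1, a membrane-anchored molecule of growing neurites, fell 3.24-fold, from 51.5 ± 40.1 to 17.2 ± 13.5 CPM over the 5 lines (log2 change -1.70, SE 0.24, adjusted p = 0.00479). Dscaml1, a homophilic molecule of retinal neurons, fell 4.17-fold (log2 change -2.06, SE 0.31, adjusted p = 0.00554), and the contactin Cntn3 fell 4.098-fold (log2 change -2.03, SE 0.34, adjusted p = 0.00734). Nptn, the synaptic molecule neuroplastin, fell from 252 ± 90.3 to 128 ± 25.5 CPM (log2 change -0.93, SE 0.13, adjusted p = 0.00485) and shares exon bases with Rec114. These 4 were lower in 5 of 5 lines in log2 CPM and stayed called with any line left out. In G9577, however, Cntn3 had 3 counts under both conditions, and Dscaml1 had 0 with MYCN on and 3 with MYCN off. Those counts are too few to show a fall of Cntn3 or Dscaml1 in that line.

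Ncam2, Chl1, Cntn4, Alcam, Lsamp and Sdk1 were the other 6 that fell. Chl1, the close homolog of L1, had the largest fall of the list, 4.54-fold (adjusted p = 0.0196), and lost its call without G4314 or G9488. Its log2 change of -2.18 was -1.59 without G9351 and -2.82 without G9529. Nfasc, the other ankyrin-binding relative of L1cam and Nrcam, was lower in 5 of 5 lines (log2 change -1.08, SE 0.45) but did not pass (adjusted p = 0.103). Of the 10 calls, 7 held with each line left out. Of 5 neuroendocrine markers, 3 were lower (Calca, Chga and Syp), and 2 without G4314, G9351 or G9488. Of all genes tested, 15.6% were lower and 15.3% higher. Insm1 (log2 change 0.08, adjusted p = 0.729) and Uchl1 (0.38, adjusted p = 0.518) had estimates above 0 and did not pass. At an unadjusted p under 0.05, or by DESeq2 or limma-voom, 0 of the 5 were higher. The part of these markers in the falls was not tested.

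**Figure D5:**
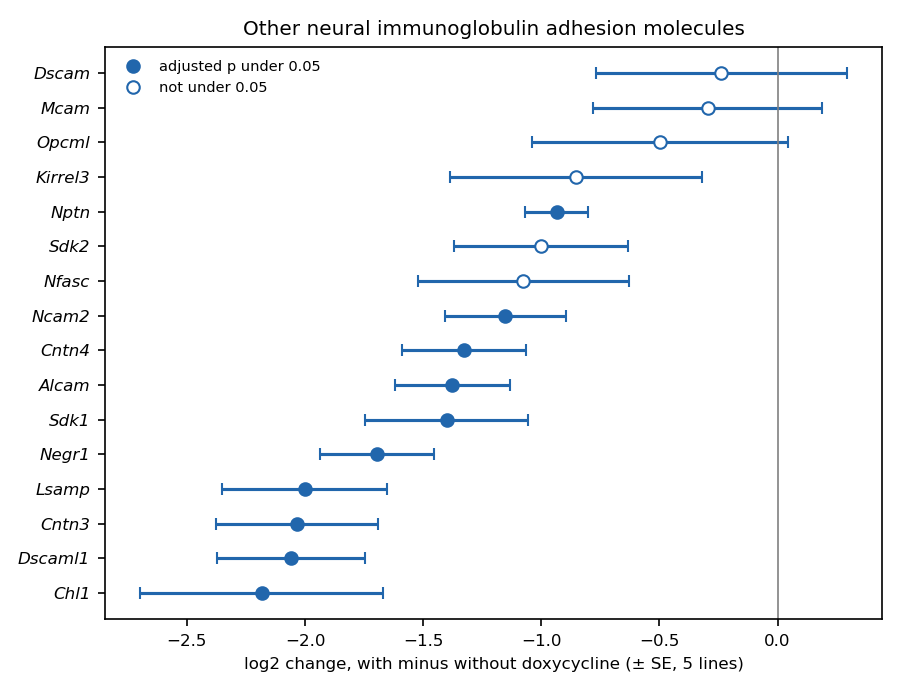
Log2 change with minus without doxycycline (horizontal axis, with SE over 5 lines) of the 16 tested neural immunoglobulin adhesion molecules other than the 4 members, filled where the adjusted p is under 0.05. All 16 estimates lie below 0, 10 of them filled, from -2.18 for Chl1 to -0.93 for Nptn.

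Among 15 binding partners, polysialylating enzymes and sheddases, 5 fell and 1 rose (against 15.6% and 15.3% of all genes tested), with a median log2 change of -0.10. Nrp1, a semaphorin coreceptor that L1 binds, fell 4.51-fold (log2 change -2.17, SE 0.20, adjusted p = 0.00266), and Gfra1, a receptor for GDNF that also pairs with Ncam1, fell 9.65-fold (log2 change -3.27, SE 0.49, adjusted p = 0.00548). Cntnap2, a contactin-associated protein, fell 2.97-fold (adjusted p = 0.0160, lost without G4314 or G9351), followed by Ptprz1 and Bace1 (1.89-fold and 1.65-fold). Ank2, an ankyrin that anchors L1-type molecules to the spectrin skeleton, rose 1.62-fold (log2 change 0.69, SE 0.17, adjusted p = 0.0230) and was higher in 5 of 5 lines. The enzymes that add polysialic acid to Ncam1 did not pass, at -0.66 (SE 0.55) for St8sia2 and -0.33 (SE 0.37) for St8sia4. The falls numbered 2 without G4314 and 3 without G9351 or G9529, and Ank2 lost its call without any of these 3 lines, while 3 genes rose without G9577. Nrp1 shares exon bases with Mir1903 and Gfra1 with Gm10007.

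Of 11 other cadherins tested, 3 fell and 0 rose, against 15.6% and 15.3% of all genes tested (median log2 change -0.73). They were Cdh13, which lacks a cytoplasmic tail (5.28-fold, log2 change -2.40, SE 0.25, adjusted p = 0.00300), Cdh18 (5.32-fold, adjusted p = 0.00978) and Cdh8 (3.79-fold, adjusted p = 0.0170), which shares exon bases with Gm15679. Cdh18 lost its call without G4314, and Cdh8 without G9351, G9488 or G9529. DESeq2 called 5 lower and 0 higher, limma-voom called 0 higher, and 1 cadherin, Cdh10, was higher at an unadjusted p under 0.05. Of 12 catenins and desmosomal genes tested, 4 fell and 0 rose, against the same 15.6% and 15.3% (median -0.40), namely Jup, or plakoglobin (1.84-fold, adjusted p = 0.0151), the neural catenins Ctnnd2 (1.77-fold) and Ctnna2 (1.90-fold), and desmoplakin, Dsp (1.52-fold). DESeq2 and limma-voom called 0 of these higher, and 0 had a rise at an unadjusted p under 0.05. The falls numbered 1 without G4314, G9351 or G9529, and Jup lost its call without G9351. Ctnnb1, beta-catenin, was at 1089 ± 296 CPM on and 1150 ± 405 CPM off (log2 change -0.05, SE 0.13, adjusted p = 0.762).

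Of 11 tested relatives and partners of Cadm1, Mpp3 rose 3.08-fold, from 25.9 ± 22.9 to 69.4 ± 57.7 CPM (log2 change 1.62, SE 0.26, adjusted p = 0.00648), and 0 fell, against 15.3% higher and 15.6% lower of all genes tested (median log2 change of the list -0.18). Mpp3 is a scaffold protein of the membrane-associated guanylate kinase family. At an unadjusted p under 0.05, 2 of this list were lower, Cadm4 and Pvrl2, and DESeq2 called 2 and limma-voom 1 lower. Of 22 tested epithelial junction and keratin genes, 2 fell and 1 rose, both smaller shares than the 15.6% and 15.3% of all genes tested (median -0.13), namely Krt8 (2.18-fold lower, adjusted p = 0.0139), the junctional molecule F11r (1.48-fold lower, adjusted p = 0.0306) and the virus receptor and tight junction molecule Cxadr (1.47-fold higher, adjusted p = 0.0275). The falls numbered 0 without G4314 or G9351, 1 without G9529, 4 without G9577, and 4 with DESeq2, limma-voom or RLE scaling. The rise was lost without G4314 or G9351, and 2 genes rose without G9577. Of 5 tested EMT factors and mesenchymal genes 0 were called in either direction, Snai2 was lower at an unadjusted p under 0.05, and DESeq2 and limma-voom each called 1 lower and 0 higher.

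The genes whose level followed each member most closely over the 10 libraries were found by Pearson correlation of log2 CPM among 10881 genes with a mean of at least 5 CPM. These r values describe 10 libraries that share lines in pairs and carry no p, and because G9577 lies apart, r over the other 8 libraries is given after each. Ncam1 was most like Cacna2d1, a calcium channel subunit (0.98, then 0.94), Ift57 (0.97, then 0.92) and Cmip (0.97, then 0.92). L1cam was most like the neuronal metallothionein Mt3 (0.998, then 0.98), Ccdc154 (0.995, then 0.95) and Pacsin1 (0.99, then 0.96). Nrcam was most like Homer2 (0.99, then 0.87), Grin1 (0.99, then 0.77) and Tagln3 (0.99, then 0.72). Cntn1 was most like Dcx, or doublecortin (0.99, then 0.92), followed by Myt1l (0.98, then 0.90). Epcam was most like Scg3, Galnt9 and Sez6 (each above 0.99), but over the other 8 libraries r was 0.47, 0.48 and 0.68, so that likeness rests on G9577. Cdh1 was most like Dll1 (0.99, then 0.86), Cadm4 (0.99, then 0.80) and Syp (0.99, then 0.73). Cdh2 was most like Msi1 (0.97, then 0.88), Tsg101 (0.97, then 0.88) and Stmn1 (0.96, then 0.85). Cadm1 was most like Kif1b (0.95, then 0.95), Lrrn3 (0.95, then 0.93) and Zyg11b (0.94, then 0.86).

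Among the members themselves, over the 8 libraries other than those of G9577, the highest r was that of Nrcam with Cntn1 (0.80), followed by Cntn1 with Cadm1 (0.77), Cdh2 with Cadm1 (0.76) and Epcam with Cdh1 (0.73). L1cam and Nrcam, which are relatives, went apart (r = -0.59). Ncam1 and L1cam, the members that fell with MYCN on, had r = 0.54.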

How the data were processed

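RNA from 5 mouse SCLC cell lines, each with and without doxycycline, was sequenced after oligo-dT selection, using NEBNext Ultra reagents, per the labels' protocols. Per the submitters' processing notes, bcl2fastq 1.8.4 and STAR 2.5.2a were used with the mm9 mouse assembly. Per the file headers, the deposited tables list unnormalized counts for each gene from featureCounts 1.6.0, without strand and with no option recorded for reads that hit several genes or places. The exon length of each gene model, also given by the authors' files, was used to compute RPKM from these counts.

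Counts were filtered with filterByExpr (minimum count 10) and scaled with TMM. Testing used the quasi-likelihood F test of edgeR (4.0.16, in R 4.3.3), two-sided, with line as a block, Benjamini-Hochberg adjustment over 12835 genes and an adjusted p under 0.05. With 4 residual degrees of freedom, the biological coefficient of variation was 28.5%. Differences among lines were tested in the same fit. SE was taken as the change over the root of its F value, and changes of lines use a prior count of 2. Lines pair the libraries by label, and the deviations of a line's libraries from their group means correlated at r = 0.721 to 0.873, against at most 0.273 between lines. No libraries were copies of each other.

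The members and lists were chosen with earlier results of these data known. Named genes were the members, Mycn, 6 EMT genes, up to 4 called genes with the smallest p of each of 7 adhesion lists, and the 3 genes most like each member. Other list genes named were chosen after their values were seen. In addition, 1 neuroendocrine marker and 1 of the most alike genes are not reported here. Alternatives were DESeq2 1.42.0, limma-voom (limma 3.58.1), RLE or no scaling factors, other filters, no block, and each line left out. Promoter windows come from RefSeq (GRCm38.p6) and were matched by symbol.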

Additional observations from a re-analysis of the deposited data

Results flagged for a closer look

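Of 24 sets of 5 values (the level with MYCN on, the level with MYCN off and the change of each member, 1 value per line), 11 had a sample far from the others by Dixon's criterion, and in each it was G9577. Chance alone flags about 1 set in 20, and the sets are not independent, since they share this line. In log2 CPM, the value of G9577 was 0.28 with MYCN on and 2.07 with MYCN off for Epcam, 2.36 and 4.73 for Cdh1, and -1.41 and -0.42 for L1cam. It was -2.39 with MYCN on for Nrcam, 6.40 with MYCN on for Cdh2 and 6.96 with MYCN off for Ncam1. The log2 change of G9577 stood apart for Epcam (-1.79) and Cdh1 (-2.37). These values rest on few counts for L1cam, Nrcam and Epcam, and the difference of G9577's change from the other lines has no replicate and was not tested.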

How the results depend on the processing

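The fit without the replicate block, which ignores that both libraries of a line are paired, called 0 members lower in edgeR (0 also at an unadjusted p under 0.05), with -0.90 for Ncam1 (adjusted p = 0.246) and -0.96 for L1cam (adjusted p = 0.722), 215 genes higher and 59 lower. With DESeq2, Cdh1 was called at -0.85. Leaving out 1 line in turn gave -0.96 to -0.46 for Cdh1, -0.44 to 0.0055 for Nrcam (the latter without G9577), -0.29 to 0.27 for Cntn1 (0.09 without G9351, 0.27 without G9529), 813 to 2244 genes higher, 916 to 2249 genes lower, and 2 to 8 members that differed among lines. The calls of Ncam1 and L1cam held under each alternative that kept the block, at adjusted p of at most 0.0408 and 0.0233. A 4-fold gap left 908 genes lower and 732 higher in G9577. The cause of these shifts was not tested. At 9586465 to 11960074 counts per library, levels of G9577 under 10 counts are known only to the intervals given.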

Other observations

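Some relatives of the 8 molecules were high in G9577 while the members were low. By the 2-fold rule used above, Cadm3, Pvrl3 and Pvr of the Cadm and nectin families, Cdh6 of the cadherins, Kirrel of the neural immunoglobulin molecules and the receptors Fgfr1 and Nrp1 were higher there than in every other line. More genes of each list were lower by that rule. The Cadm and nectin families had 3 higher and 5 lower of 12, and the other cadherins 1 and 4 of 12. The neural immunoglobulin molecules had 1 higher and 8 lower of 18, and the partners 2 and 3 of 15. Of all genes, 9.33% were higher and 10.7% lower. Pvr, the poliovirus receptor homolog, was at 26.7 (on) and 35.0 CPM (off) in G9577 and at 0.190 to 3.04 CPM elsewhere. Pvrl3, or nectin 3, was at 42.8 and 34.2 CPM against 3.63 to 16.3 CPM. Kirrel, a nephrin-like molecule, was at 315 and 951 CPM against at most 1.67 CPM, and Fgfr1, a receptor that Ncam1 and Cdh2 can engage, at 109 and 934 CPM against 6.47 to 32.1 CPM. These genes were chosen after their values were seen, 1 line carries the pattern, and it was not tested.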
